A study of Mus musculus with 6 samples.

Results

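The transcripts of 9 mouse genes that govern how the liver makes, uses and stores glucose were compared between 2 inbred strains. The genes were Pck1, G6pc, Fbp1 and Pcx of gluconeogenesis, Pklr of glycolysis, Gys2, Ppp1r3b and Ppp1r3c of glycogen synthesis, and Pygl of glycogen breakdown. They were taken by gene symbol from the annotation of the Affymetrix mouse array, with every probe set that carries one of these symbols. This gave 18 of the 45101 probe sets on the array and 9 of the 18193 genes analysed. Of the 18 probe sets, 14 entered the tests and 4 are quality control probe sets along the Pcx transcript, which were given as values. All 9 genes had a mean of at least 6 over the 6 arrays, on a log2 scale on which array medians lay between 5.08 and 5.22, and so did 13 of the 14 probe sets.

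RNA came from whole liver of male mice aged 18 weeks, with 3 arrays of C57BL/KS (BKS) and 3 of NZO. BKS served as the control strain. NZO, the New Zealand Obese strain, becomes obese and diabetic through many loci of its own background, so that the comparison is between whole genomes and not of 1 allele. Neither strain carried a named mutation or transgene or received a treatment, and both had free access to regular chow and water. Blood glucose, glycogen content, and feeding state or time of day at death are not given in the sources used here, and the labels leave unsaid whether each array is its own animal, so the p-values measure the spread between arrays, which may be technical in part.

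Gluconeogenesis builds glucose from lactate, amino acids and glycerol, and the last step, removal of phosphate from glucose 6-phosphate, is shared with glycogen breakdown. Glucagon, acting through cyclic AMP, raises the transcription of its enzymes during fasting, and insulin lowers it through loss of FOXO1 from the nucleus. Glycogen synthase is switched on by protein phosphatase 1, which is brought to the glycogen particle by targeting subunits such as the products of Ppp1r3b and Ppp1r3c.

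Each gene was read from its probe set with the highest mean. Of the 9 genes, Ppp1r3c and G6pc were then the ones whose 3 NZO values all lay above the 3 BKS values. Ppp1r3c was 3.70-fold and G6pc 2.15-fold higher in NZO, while the other 7 genes overlapped between the strains, with differences between -0.56 and 0.45 on the log2 scale. Pklr overlapped in this probe set only. Its dimmer probe sets, 1421259_at and 1421258_a_at, did not overlap and were higher in NZO by 1.38 and 1.43. The median difference of the 9 was -0.05, beside -0.20 over all genes with a mean of at least 6. Among all genes, 6.11% had every NZO value above every BKS value. In limma across all genes, none of the 9 passed at an adjusted p below 0.05, the threshold used throughout, against 0.742% of all genes, and 2 of the 9 were below an unadjusted p of 0.05, as were 2078 of the 18193 genes. One array of each strain is titled number 1, and the labels do not say what this number marks. With this pair, BKS replicate 1 and NZO replicate 1, set as a block, Ppp1r3c and G6pc passed, higher in NZO, where 1.51% of all genes did so. The same 2 passed, again higher in NZO, in the 2 against 2 arrays left without the number 1 arrays, where 5.01% of all genes passed in either direction. At the level of single probe sets, 1 of the 14 passed without a block, a probe set of Ppp1r3c, against 0.191% of all probe sets called higher in NZO.

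**Figure D1:**
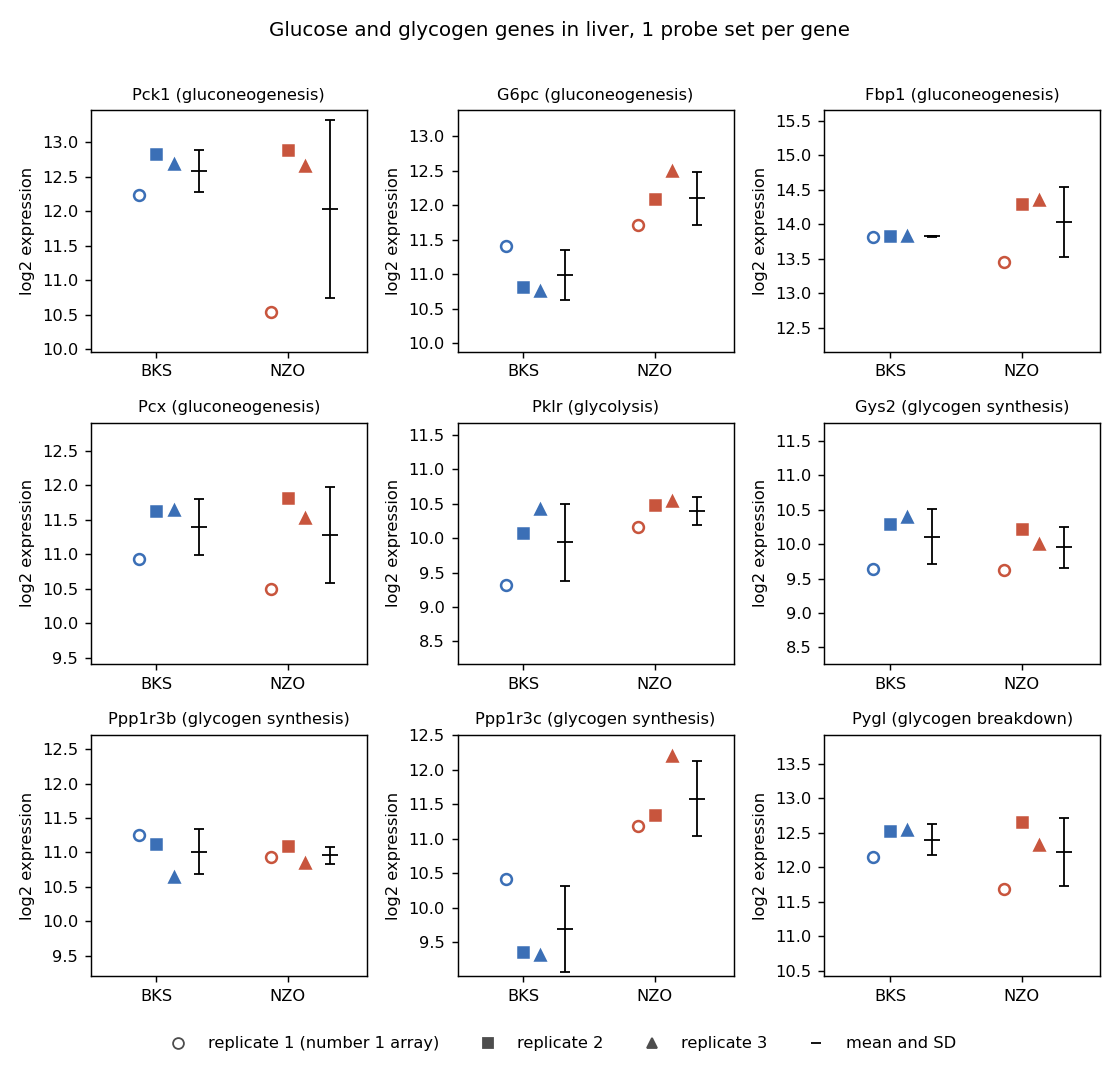
The log2 expression value (vertical axis) of the 9 genes on the 6 arrays, 1 panel and 1 probe set per gene, BKS beside NZO. Every point is 1 array, open circles are the number 1 arrays, and the black bars are the strain mean and SD. The NZO points lie wholly above the BKS points for G6pc and Ppp1r3c, and the NZO number 1 array is the lowest point for Pck1 at 10.54 and for Fbp1 at 13.45.

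The number 1 arrays had the lowest hybridization controls of the 6 arrays, but were unlike each other in their gene values. Spiked-in hybridization controls, which hold no liver RNA, averaged 9.68 and 8.45 on them, against 10.56 to 11.83 on the others. NZO replicate 1 was the lowest of the 6 arrays in 5 of the 9 genes and in 61.1% of the 9622 genes with a mean of at least 6. BKS replicate 1 was the lowest in 1 of the 9 and in 12.4% of the 9622. The 18S ribosomal RNA controls averaged 10.46 and 7.91 on BKS replicates 2 and 3, against 4.51 to 5.52 on the other 4 arrays, which sets both BKS arrays of the 2 against 2 comparison apart from the NZO arrays; the part of this in the differences of G6pc and Ppp1r3c was not tested. Signs of RNA or cDNA length also moved with strain: the 3' minus 5' signal of beta-actin was 1.72, 2.33 and 1.92 on the BKS arrays and 1.29, 1.34 and 1.39 on the NZO arrays, and that of Gapdh was 0.77, 0.98 and 0.45 against -0.04, 0.11 and 0.14. Hepatocyte markers, of which 7 of 8 were measured, summed to 16.93 to 16.99 in BKS and 16.01 to 16.96 in NZO on the log2 scale. None of them passed with or without the block, while Ass1 passed as higher in the 2 against 2 arrays (adjusted p = 0.0151). Ass1 was the 1 of these markers with a mean below 6, at 5.79 over the 6 arrays. In whole tissue, fewer cells of a type and less RNA per cell cannot be told apart.

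Gluconeogenesis was described first, in the order of its pathway. Pcx encodes pyruvate carboxylase, the mitochondrial enzyme that turns pyruvate into oxaloacetate. Probe set 1416383_a_at of this gene read 10.93, 11.63 and 11.64 on the BKS arrays and 10.50, 11.82 and 11.53 on the NZO arrays. The strains overlapped, with the number 1 array lowest in each. The difference was -0.12 (SE 0.37, 95% interval -0.98 to 0.75, adjusted p = 0.944).

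The 4 Pcx control probe sets, which the manufacturer placed along the transcript from its 3' to its 5' end, did not share 1 difference. At the 3' end the values were 10.69, 11.40 and 11.45 on the BKS arrays and 10.56, 11.74 and 11.72 on the NZO arrays, with strain means of 11.18 and 11.34. At the 5' end they were 6.67, 6.77 and 6.60 in BKS and 8.65, 7.71 and 7.45 in NZO, so that the strains no longer overlapped. The middle probe sets, labelled MA and MB, were higher in NZO by 1.33 and 1.16, against 0.16 at the 3' end and 1.26 at the 5' end. The strain difference of Pcx thus depended on which end of its transcript was read.

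Pck1 encodes the cytosolic phosphoenolpyruvate carboxykinase, which commits oxaloacetate to gluconeogenesis. Its log2 values were 12.24, 12.83 and 12.68 in BKS and 10.54, 12.88 and 12.66 in NZO. NZO replicate 1 lay far below the rest, while the other 2 NZO arrays lay close to the BKS arrays. Over all 6 arrays the difference was -0.56 (SE 0.58, 95% interval -1.92 to 0.81, adjusted p = 0.787). In the 2 against 2 arrays it was 0.01 (adjusted p = 0.983), and the number 1 arrays alone differed by -1.70. The negative difference rested on NZO replicate 1: it was 0.18 without this array and -0.73 without BKS replicate 1. A further Pck1 probe set, 1439617_s_at, whose suffix marks probes shared with other sequences, read 9.54, 10.80 and 11.28 in BKS and 9.30, 11.99 and 11.80 in NZO. Its difference of 0.49 pointed the other way and did not pass (adjusted p = 0.901). The last probe set, 1455209_at, stayed between 3.52 and 3.71 on every array, near the bottom of the scale.

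Fbp1 encodes fructose-1,6-bisphosphatase, which opposes phosphofructokinase. Fbp1 read 13.82, 13.83 and 13.83 on the BKS arrays and 13.45, 14.30 and 14.35 on the NZO arrays. The BKS arrays were almost equal, and the NZO arrays lay on both sides of them. The difference was 0.21 (SE 0.25, 95% interval -0.39 to 0.80, adjusted p = 0.830), and stood at 0.49 without the number 1 arrays (adjusted p = 0.124) and at -0.37 in them alone.

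G6pc encodes the catalytic subunit of glucose-6-phosphatase, which frees glucose for release into blood. Its log2 values were 11.41, 10.81 and 10.76 on the BKS arrays and 11.72, 12.09 and 12.49 on the NZO arrays. The lowest NZO array was above the highest BKS array, and the arrays of opposite strain nearest to each other were the number 1 arrays. Strain means were 10.99 ± 0.36 (SD, n = 3) and 12.10 ± 0.39 (SD, n = 3), a difference of 1.11 (SE 0.26, 95% interval 0.49 to 1.72). The adjusted p over all genes was 0.151, and 0.0356 with the number 1 arrays as a block. In the 2 against 2 arrays the difference was 1.50 (adjusted p = 0.00558), and between the number 1 arrays it was 0.31. With p-values adjusted over all probe sets instead of over genes, G6pc did not pass with the block (adjusted p = 0.0700) and passed in the 2 against 2 arrays (adjusted p = 0.0117).

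The 4 genes of gluconeogenesis did not move as a group: their median difference was 0.05, with G6pc and Fbp1 above 0 and Pck1 and Pcx below it in the deposited scaling, while Pcx was above 0 after repeated quantile normalization or cyclic loess. Pck1 and G6pc are the textbook targets of glucagon and insulin in this pathway. The 250 bases upstream of the start of each are therefore shown from RefSeq (build GRCm38.p6), 5' to 3' on the strand of the gene. The Pck1 stretch is chr2:173152823-173153072 and the G6pc stretch is chr11:101367466-101367715, both on the plus strand. Capitals mark matches to 4 motifs, searched on both strands: TGACGT (the core of a cyclic AMP response element), TGTTTTG (a core of insulin response sequences to which FOXO factors bind), CACGTG (an E-box) and TATAAA, known as the TATA box.
Pck1: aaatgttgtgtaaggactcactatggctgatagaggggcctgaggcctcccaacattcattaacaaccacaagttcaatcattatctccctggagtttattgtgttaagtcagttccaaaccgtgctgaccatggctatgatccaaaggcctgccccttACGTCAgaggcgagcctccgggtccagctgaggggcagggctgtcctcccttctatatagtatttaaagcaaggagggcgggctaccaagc
G6pc: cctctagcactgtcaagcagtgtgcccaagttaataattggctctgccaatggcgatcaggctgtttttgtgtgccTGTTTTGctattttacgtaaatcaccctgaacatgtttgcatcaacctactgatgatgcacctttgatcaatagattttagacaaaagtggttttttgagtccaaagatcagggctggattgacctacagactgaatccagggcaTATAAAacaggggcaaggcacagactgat
The Pck1 stretch holds TGACGT on the opposite strand, printed as ACGTCA, at 91 to 86 bases upstream of the start. The G6pc stretch holds TGTTTTG at 174 to 168 bases and TATAAA at 29 to 24 bases upstream, both on the strand of the gene. Of 32851 stretches of this length, 6.47% hold TGACGT, 5.56% TGTTTTG, 6.02% CACGTG and 12.4% TATAAA. A match describes the letters in the window and not a bound site, and sequences that differ from a motif in any letter are left unmarked. The letters are those of the reference genome and were not read in BKS or NZO, so they show nothing about a difference between these strains. RefSeq stretches were matched for 7 of the 9 genes and not for Gys2 and Ppp1r3b. In the others, CACGTG was found upstream of 1 of 2 Pcx starts and in Ppp1r3c, TATAAA upstream of 1 of 2 Pklr starts, and none of the 4 motifs in Fbp1 and Pygl.

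Partner genes of gluconeogenesis, a list of 24 with 21 measured, had a median difference of -0.04, beside -0.03 over all genes. For the 17 with a mean of at least 6 it was -0.10, beside -0.20 over all such genes. None of the 21 passed without the block. With the block 1 passed, higher in NZO, where 1.51% of all genes did so. This was Got1, the cytosolic aspartate aminotransferase that passes carbon between mitochondria and cytosol, at 1.35 (adjusted p = 0.252 without and 0.0375 with the block). Pck2, the mitochondrial carboxykinase, differed by 0.18 (adjusted p = 0.677). Slc37a4, the carrier that brings glucose 6-phosphate to the G6pc product, differed by 0.01 (adjusted p = 0.995), and its strain means were both 11.26. Slc2a2, the main glucose transporter of hepatocytes, differed by 0.21 (adjusted p = 0.819). Of a list of 9 glucose transporters and Txnip, an arrestin-like protein that restrains glucose uptake, none passed with or without the block; Slc2a1 and Slc2a8, the ones with the smallest p, both stood at -0.57 (adjusted p = 0.570 and 0.631).

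Glycolysis was represented by Pklr, which encodes the pyruvate kinase of liver and red cells and is induced by carbohydrate feeding. Its 3 probe sets differed in what they showed. The probe set with the highest mean, 1438711_at, read 9.32, 10.07 and 10.42 on the BKS arrays and 10.16, 10.48 and 10.53 on the NZO arrays. These values overlapped, and the difference was 0.45 (SE 0.29, 95% interval -0.22 to 1.13, adjusted p = 0.619).

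In the other two probe sets every NZO array was above every BKS array. Probe set 1421259_at read 7.13, 7.28 and 8.27 in BKS and 8.90, 9.0 and 8.93 in NZO, a difference of 1.38 (adjusted p over all probe sets 0.158, and 0.0406 with the block). Probe set 1421258_a_at read 7.34, 8.54 and 9.56 in BKS and 9.79, 10.19 and 9.75 in NZO, a difference of 1.43 (adjusted p = 0.401, and 0.0986 with the block). Both were higher in NZO by more between the number 1 arrays, at 1.77 and 2.45, than between the other 4, at 1.19 and 0.92. Neither passed in the 2 against 2 arrays (adjusted p = 0.104 and 0.221).

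The other listed genes of glycolysis, 19 measured of 25, had a median difference of 0.03. For the 12 with a mean of at least 6 it was -0.19, beside -0.20 over all such genes. None of the 19 passed without the block. With the block 1 passed, lower in NZO, where 5.04% of all genes did so. This was Pfkfb3, a bifunctional enzyme that makes fructose 2,6-bisphosphate, the activator of phosphofructokinase. Its values were 6.43, 7.34 and 6.69 in BKS and 5.41, 5.31 and 4.93 in NZO, a difference of -1.60 (SE 0.26, adjusted p = 0.0525 without and 0.00884 with the block). Aldoa, an aldolase, differed by -0.79 (adjusted p = 0.609). Gckr, the regulatory protein that holds glucokinase inactive in the nucleus, differed by 0.30, and Pfkl, the liver phosphofructokinase, by -0.17; neither passed.

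Glycogen synthesis held the largest difference among the 9 genes. Ppp1r3c encodes the subunit also known as protein targeting to glycogen, a scaffold for protein phosphatase 1 and its glycogen-metabolising substrates. Probe set 1433691_at, which represents the gene, read 10.41, 9.36 and 9.31 on the BKS arrays and 11.19, 11.34 and 12.20 on the NZO arrays. The strains did not overlap, and the arrays of opposite strain that came nearest to each other were again the number 1 arrays. Means were 9.69 ± 0.62 (SD, n = 3) and 11.58 ± 0.54 (SD, n = 3), a difference of 1.89 (SE 0.38, 95% interval 1.00 to 2.77). The adjusted p over all genes was 0.0939, and 0.0170 with the block. Without the number 1 arrays the difference was 2.44 (adjusted p = 0.00361), and they alone differed by 0.78.

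Probe set 1425631_at of the same gene read 6.97, 5.93 and 6.11 in BKS and 9.47, 9.43 and 10.38 in NZO. Its strains were parted by more than the spread within either of them. Means were 6.34 ± 0.56 (SD, n = 3) and 9.76 ± 0.54 (SD, n = 3), and NZO was 10.7-fold higher, by 3.42 on the log2 scale (SE 0.36, adjusted p over all probe sets 0.0172). With the block the adjusted p was 0.00488, and in the 2 against 2 arrays the difference was 3.89 (adjusted p = 0.00214). The call was lost on leaving out BKS replicate 2 (adjusted p = 0.123), BKS replicate 3 (0.109), NZO replicate 2 (0.0547) or NZO replicate 3 (0.0775), while the difference stayed between 3.11 and 3.74 whichever array was left out. With the block 3 of the 14 probe sets passed as higher in NZO, both of Ppp1r3c and Pklr 1421259_at, beside 0.926% of all probe sets. In the 2 against 2 arrays 3 passed, both of Ppp1r3c and that of G6pc, beside 1.38%. In all, 5 of the 14 had every NZO value above every BKS value, beside 6.83% of all probe sets, and none had the opposite.

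**Figure D2:**
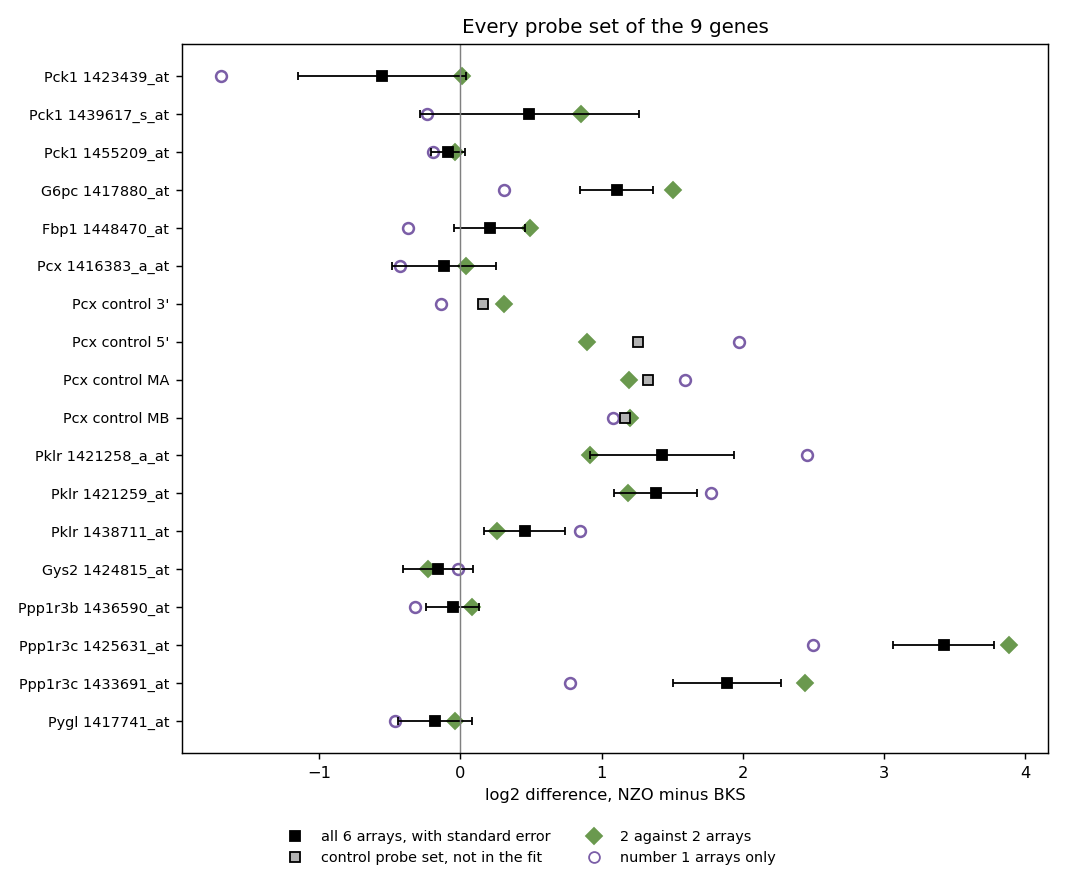
The log2 difference NZO minus BKS (horizontal axis) of each of the 18 probe sets, grouped by gene; black squares are the mean difference over 6 arrays with its standard error, grey squares are control probe sets outside the fit, green diamonds are the 2 against 2 arrays and open circles the number 1 arrays alone. Ppp1r3c 1425631_at stands farthest to the right at 3.42, and the probe sets of Pck1, Pklr and Pcx do not share 1 position within their gene.

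The stretch upstream of the Ppp1r3c start is shown for comparison with those of Pck1 and G6pc above, since Ppp1r3c and G6pc were the genes that passed with the block; it was added after their values were seen. It is chr19:36736605-36736854 on the minus strand (GRCm38.p6), printed 5' to 3' on the strand of the gene.
Ppp1r3c: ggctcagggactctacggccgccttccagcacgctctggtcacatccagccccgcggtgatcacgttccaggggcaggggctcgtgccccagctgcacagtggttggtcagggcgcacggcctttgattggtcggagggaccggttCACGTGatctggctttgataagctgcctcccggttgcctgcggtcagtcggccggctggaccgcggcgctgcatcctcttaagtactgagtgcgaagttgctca
The capitals mark CACGTG at 104 to 99 bases upstream of the start, an E-box, the kind of sequence to which USF and related factors bind. Neither TGACGT nor TGTTTTG nor TATAAA is among the letters of this window.

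Ppp1r3c is also made in skeletal muscle and fat, so their markers are given beside it. All 6 skeletal muscle markers had means below 6, between 4.08 and 5.96, and summed to 7.63 to 7.90 in BKS and 7.68 to 7.87 in NZO. Of 5 adipocyte markers 3 were measured, 2 with means below 6, and they summed to 6.28 to 7.32 in BKS and 6.68 to 7.75 in NZO; Adipoq, the hormone gene that defines adipocytes, lay between 3.80 and 4.12 on every array. Fabp4, the fatty acid binding protein of fat cells and macrophages, read 6.83, 5.08 and 5.50 in BKS against 5.87, 7.43 and 6.55 in NZO, overlapping over 6 arrays (0.81, adjusted p = 0.631, and 0.381 with the block), but it passed as higher in the 2 against 2 arrays (1.70, adjusted p = 0.0199). Their part in the Ppp1r3c result was not tested.

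Gys2 encodes the liver glycogen synthase itself, on which the phosphatase complexes act. Its log2 values were 9.64, 10.29 and 10.39 in BKS and 9.63, 10.22 and 10.00 in NZO. In both strains the number 1 array was lowest, and the ranges overlapped. The difference was -0.16 (SE 0.25, 95% interval -0.75 to 0.43, adjusted p = 0.875).

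Ppp1r3b encodes the targeting subunit named for liver. The values were 11.26, 11.13 and 10.65 on the BKS arrays and 10.94, 11.09 and 10.85 on the NZO arrays, with the NZO arrays inside the BKS range. The difference was -0.05 (SE 0.20, 95% interval -0.52 to 0.41, adjusted p = 0.954), so that an increase as large as that fitted for Ppp1r3c lies outside the interval of Ppp1r3b. The median difference of the 3 synthesis genes was -0.05, with Ppp1r3c the 1 above 0. Small differences changed sign between settings, and the cause was not tested. As deposited, 4 of the 9 genes were above 0. Repeated quantile normalization or cyclic loess put 8 above 0, with the median of the 9 at 0.26 under either. Leaving out NZO replicate 1 also put 8 above 0, and leaving out both number 1 arrays put 7 there.

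Glycogen breakdown was represented by Pygl, the liver glycogen phosphorylase. On the log2 scale it read 12.15, 12.52 and 12.54 in BKS and 11.68, 12.66 and 12.33 in NZO. NZO replicate 1 was the lowest array and NZO replicate 2 the highest, on either side of BKS. The difference was -0.18 (SE 0.27, 95% interval -0.81 to 0.45, adjusted p = 0.864).

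Among 28 measured of 30 other genes of glycogen metabolism, none passed with or without the block, and the median difference was -0.12. For the 20 with a mean of at least 6 it was -0.24, beside -0.20 over all such genes. The smallest p-values were those of Phka2, a regulatory subunit of the liver phosphorylase kinase, at -0.45 (adjusted p = 0.318), and Ppp1cc, a catalytic subunit of protein phosphatase 1, at -0.48 (adjusted p = 0.511). Ugp2, which makes the UDP-glucose that glycogen synthase uses, differed by -0.18, and Gbe1, the branching enzyme, by -0.04.

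In 4 pairs of probe sets of Ppp1r3c, Pklr and Pck1, the brightest of the gene minus another, the gap was larger in BKS than in NZO. This does not hold for every pair: Pklr 1421258_a_at and 1421259_at had similar strain differences, of 1.43 and 1.38. No gap is given for that pair or for Pck1 1455209_at, which lay near the bottom of the scale. For Ppp1r3c, 1433691_at minus 1425631_at was 3.44, 3.42 and 3.20 on the BKS arrays and 1.72, 1.91 and 1.82 on the NZO arrays. For Pklr, 1438711_at minus 1421259_at averaged 2.38 in BKS and 1.45 in NZO, and 1438711_at minus 1421258_a_at averaged 1.46 and 0.48. For Pck1, 1423439_at minus 1439617_s_at averaged 2.04 and 1.00. In all 4 of these pairs the 3 BKS gaps were above the 3 NZO gaps, as they were in 25.2% of 5211 such pairs over the array; the median shift was 1.01 in the 4 pairs and 0.21 in all pairs. The Pcx controls behaved alike: 3' minus MA averaged 3.89 in BKS and 2.72 in NZO, 3' minus MB 2.38 and 1.38, and 3' minus 5' 4.50 and 3.40. In exact two-sided permutation tests over the arrays, 6 of the 7 gaps reached p = 0.1, the smallest that 3 against 3 allows (0.117 adjusted over the 7), and Pcx 3' minus 5' gave p = 0.3. These gaps ran the same way as the beta-actin and Gapdh 3' minus 5' signals, which were higher on every BKS array than on any NZO array. Their part in the strain differences of Ppp1r3c and Pklr was not tested.

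**Figure D3:**
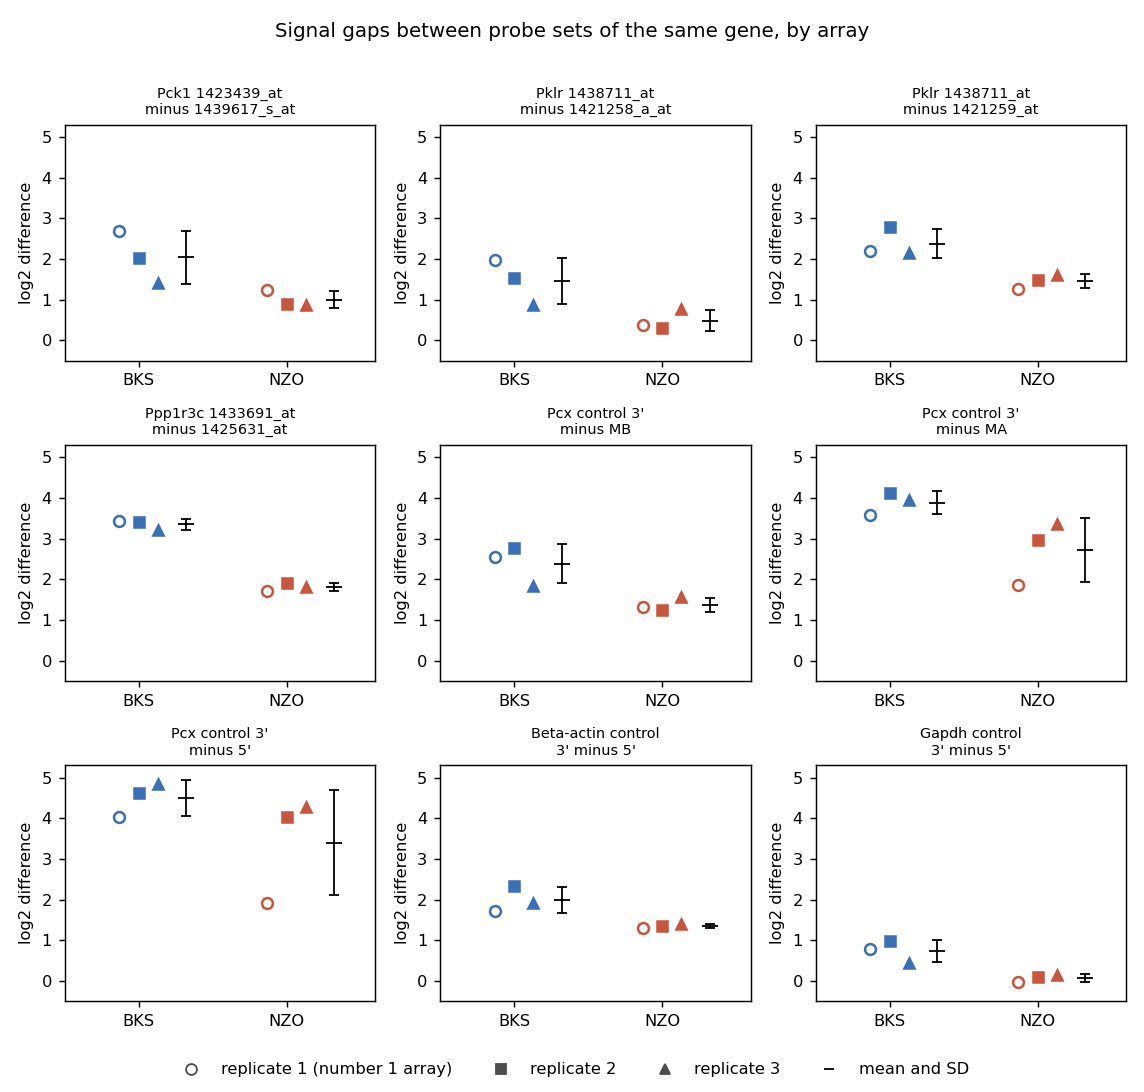
The difference between the log2 values of 2 probe sets of the same gene (vertical axis) on each array, for 4 pairs of Ppp1r3c, Pklr and Pck1 and for the control probe sets of Pcx, beta-actin and Gapdh; every point is 1 array, open circles are the number 1 arrays, and the black bars are the strain mean and SD. For Ppp1r3c the BKS arrays lie at 3.20 to 3.44 and the NZO arrays at 1.72 to 1.91.

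Regulators of glucose genes, 44 measured of 45 listed, had a median difference of -0.30 beside -0.03 over all genes. For the 41 with a mean of at least 6 it was -0.31, beside -0.20 over all such genes. Without the number 1 arrays the median of the list was -0.11, and in them alone -0.71. Without the block 1 passed, Foxa1, a pioneer factor that opens liver enhancers. Its values were 10.07, 10.77 and 9.93 in BKS and 8.52, 8.03 and 8.13 in NZO, and it was 4.08-fold lower in NZO, a difference of -2.03 (SE 0.26, adjusted p = 0.0206). With the block 4 of the 44 passed, all lower in NZO, where 5.04% of all genes passed as lower and 1.51% as higher. Beside Foxa1 these were Foxo1, the insulin-restrained activator of G6pc and Pck1, at -1.37 (adjusted p = 0.0775 without and 0.0133 with the block), Foxa2, a relative of Foxa1, at -0.94 (0.0980 and 0.0225), and Insr, the insulin receptor, at -0.79 (0.298 and 0.0218). In the 2 against 2 arrays Foxa1 and Foxo1 passed as lower, Foxa2 and Insr did not (adjusted p = 0.0754 and 0.0659), and 1 regulator as higher, Pde4b, a phosphodiesterase that degrades cyclic AMP, at 0.90 (adjusted p = 0.0459). Mlxipl, which encodes the carbohydrate-responsive factor ChREBP that activates Pklr, differed by -0.15, and Ppargc1a, a coactivator of gluconeogenesis in fasting, by -0.06; neither passed.

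Of the genes of fructose, galactose and pentose phosphate metabolism, 11 of 16 were measured, with a median difference of -0.46, beside -0.20 over all genes with a mean of at least 6, as all 11 had. Without the number 1 arrays this median was -0.28, and in them alone -0.66. None passed without the block. With it 1 was higher in NZO, Tkfc, which phosphorylates glyceraldehyde from fructose, at 1.18 (adjusted p = 0.463 without and 0.0494 with the block), and 2 were lower. The lower genes were Tkt, a transketolase, at -0.58 (0.326 and 0.0489), and Pgls, a lactonase of the pentose phosphate pathway, at -0.59 (0.612 and 0.0395). Over all genes, 5.04% were called lower and 1.51% higher with the block. In the 2 against 2 arrays Tkfc passed (adjusted p = 0.00551), and Tkt and Pgls did not (0.134 and 0.0950).

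**Figure D4:**
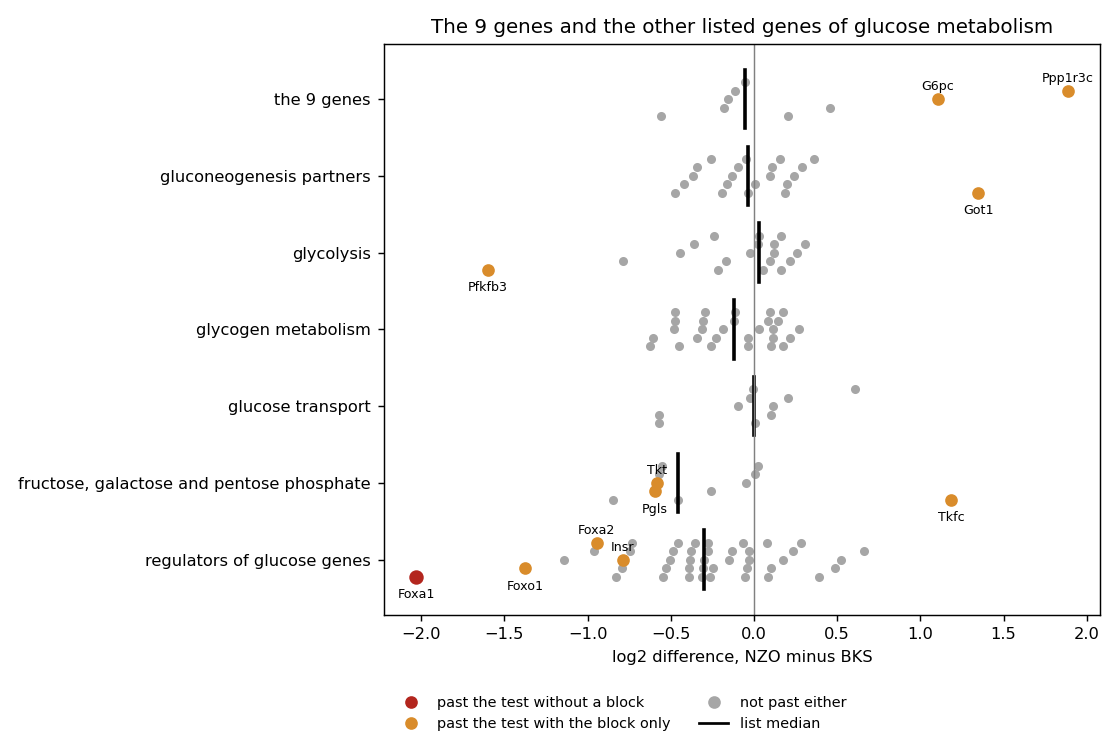
The log2 difference NZO minus BKS (horizontal axis) of each measured gene in the 9 genes and in 6 lists of related genes; every point is 1 gene, red passed without a block, orange with the block only, grey with neither, and the black bar is the median of the list. Ppp1r3c at 1.89 and G6pc at 1.11 lie to the right, Foxa1 at -2.03 and Pfkfb3 at -1.60 to the left. The list medians, genes with means below 6 included, lie between -0.46 and 0.03.

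Gluconeogenesis is strongest in periportal hepatocytes and glycolysis in pericentral ones, so the markers of both zones are given. Of 5 periportal markers 3 were measured, summing to 14.23 to 14.43 in BKS and 13.39 to 14.33 in NZO, and 1 passed with the block, Cdh1, the epithelial cadherin, at -2.77. All 6 pericentral markers were measured, summing to 15.10 to 15.19 in BKS and 14.10 to 15.29 in NZO. With the block Cyp1a2 (-1.62) and Slc1a2 (-0.84) were lower and Rhbg (1.32) was higher, beside 5.04% of all genes called lower and 1.51% higher. Of the zone markers, Cdh1, Cyp1a2 and Slc1a2 passed as lower in the 2 against 2 arrays. Rhbg and Oat (1.05, adjusted p = 0.0125) passed as higher there. Among markers of sinusoidal endothelium, 6 of 6 were above 0, with a median of 0.42 beside -0.03 over all genes. They summed to 9.57 to 10.09 in BKS and 9.93 to 10.81 in NZO. Pecam1 and Stab2 passed with the block, higher in NZO, where 1.51% of all genes did so. Pecam1 and Stab2 also passed in the 2 against 2 arrays. No marker of Kupffer cells, stellate cells, cholangiocytes or lymphocytes passed with the block. In the 2 against 2 arrays, where G6pc and Ppp1r3c passed, 2 of 6 Kupffer cell markers passed as higher in NZO, Vsig4 (1.96, adjusted p = 0.00304) and Cd68 (1.17, adjusted p = 0.0442). So did 2 of 6 stellate cell markers, Dcn (1.27, adjusted p = 0.0129) and Lrat (0.71, adjusted p = 0.0465). Of all 18193 genes, 363 passed as higher there. Cd68, Lrat and Pecam1 were dim, with both strain means below 6. The Kupffer cell markers summed to 10.40 to 11.45 in BKS and 10.43 to 11.42 in NZO, and the stellate cell markers to 10.17 to 11.38 and 10.16 to 11.12. The part of these cell types and zones in the differences of G6pc, Pklr and Ppp1r3c was not tested.

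The genes whose profile over the 6 arrays was nearest to that of Ppp1r3c, among 9621 others with a mean of at least 6, were Fmn2, Cdkn1a and Tspyl4. The measure was the Euclidean distance between log2 profiles centred on their means, and these distances were 0.74, 0.80 and 0.84. Cdkn1a, the cell cycle inhibitor p21, read 8.59, 7.27 and 6.72 on the BKS arrays and 9.05, 9.65 and 9.70 on the NZO arrays, with the number 1 arrays nearest to each other as in Ppp1r3c. G6pc ranked 9th in distance from Ppp1r3c, at 1.07, while Ppp1r3c ranked only 261st in distance from G6pc. The nearest to G6pc were Cda, Hacl1 and Adgrf5, at 0.24, 0.46 and 0.46. Cda, a cytidine deaminase, read 7.13, 6.72 and 6.75 in BKS and 7.65, 8.00 and 8.26 in NZO, and Hacl1, a peroxisomal lyase of fatty acid alpha-oxidation, read 11.82, 11.59 and 11.57 in BKS and 12.28, 12.80 and 12.79 in NZO. In both, as in G6pc, every NZO array was above every BKS array. These distances share the 6 arrays and their strain difference, and describe likeness only.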

How the data were processed

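RNA of 6 mouse liver samples was measured on Affymetrix 3' expression arrays, with 1 array for each. The authors deposited 1 log2 value per probe set and array. The submitters' processing notes name RMA and Affymetrix Expression Console; versions are not given in the sources used here. RMA includes a quantile normalization step, and the values are relative. Whether the 6 deposited arrays went through this step together was not tested. Their medians lay between 5.08 and 5.22, and repeating the step over them moved the median difference of the 9 genes from -0.05 to 0.26. They carry no detection call, and the number of arrays limits the precision.

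Probe sets were named from the platform annotation: 34945 had 1 gene symbol, 932 several and 9160 none here. No test included the 64 controls. Each of 18193 genes took the values of its brightest probe set on average; 18145 matched RefSeq names. The strain contrast was fitted by limma 3.58.1 under R 4.3.3 (two-sided lmFit and eBayes), with Benjamini-Hochberg adjustment over all genes, and separately over the 45037 other probe sets. Differences are NZO minus BKS. The script was tested on simulated data. Summed levels are log2 of summed linear values. Figures used matplotlib 3.10.9.

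The members, lists and tests were chosen with earlier results of these data known. The lists named all genes that passed if 5 or fewer, otherwise the 4 largest, or the 2 smallest p-values where none passed, and 13 partner genes in any case, 3 of them not analysed here. For Ppp1r3c and G6pc the 3 nearest genes were named. Replicate numbers follow accession order and pair nothing. Alternatives changed the block, arrays, normalization, dim-gene filter, choice of probe set, variance model and array weights; those on single probe sets, other than the block, were added after seeing the data.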

Additional observations from a re-analysis of the deposited data

How the results depend on the processing

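Against 135 genes past the test, the fit gave 1192 with the number 1 arrays as a block, 912 without these arrays, 1298 with array weights, 436 with quantile normalization repeated, 429 with cyclic loess, 281 with eBayes trend and robust, and 27 to 258 leaving out 1 array. Of the 9 genes, 0 passed as deposited and in each fit leaving out 1 array; 2 passed with the block, without the number 1 arrays, with repeated quantile normalization, cyclic loess and array weights; 1 passed with genes of mean at least 6, with the mean of all probe sets, and with trend and robust. Of the 14 probe sets, against 1 past the test, 3 passed with the block, 3 without the number 1 arrays, 2 with cyclic loess, and 0 to 1 leaving out 1 array.

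Over 16 alternatives G6pc stayed positive (0.31 to 1.50), and so did Ppp1r3c (0.78 to 2.65). The number 1 arrays alone, counted among the 16, set 1 array against 1 and gave no p-value. Among the others G6pc passed in 5 (adjusted p 0.00363 to 0.614) and Ppp1r3c in 8 (0.0019 to 0.444). Pklr also stayed positive in all 16 and passed in none of those that gave a p-value. Repeated quantile normalization and cyclic loess moved the median of the 9 genes from -0.05 to 0.26, with 8 above 0 in place of 4, and leaving out NZO replicate 1 moved it to 0.28, so the signs of the small differences of Pck1, Pcx, Gys2, Ppp1r3b and Pygl are not settled; the cause was not tested. Restricting to genes with a mean of at least 6 put the median of all genes at -0.20. No paired analysis was possible because the strains share only the number 1 in the titles, in 1 array each. Probe sets near the bottom of the scale, such as Pck1 1455209_at, give no readable difference.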
